A study of Homo sapiens with 13 samples.

Results

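Cholesterol and fatty acid synthesis genes were examined in 13 untreated human acute lymphoblastic leukemia (ALL) cell lines. The set holds 31 genes, named as enzymes of sterol and fatty acid synthesis or as sensors and carriers of sterols. A gene was represented by the probe set annotated to its symbol alone that had the highest mean over the 13 arrays. By this rule 28 of the 31 genes were measured, out of 18568 genes on the array. All 28 passed the filter on low values, which 12560 genes passed. FDFT1, CYP51A1 and FADS1 had no probe set annotated to 1 symbol and were not analysed here.

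RNA of each line was hybridised to 1 HG-U133 Plus 2.0 array, a whole-transcriptome chip on which groups of short probes, called probe sets, report transcripts. Before extraction, the lines had grown for 30 hours in RPMI-1640 with 10% fetal bovine serum and antibiotics. B-cell precursor ALL (BCP-ALL) was represented by 6 lines, namely Nalm6, Nalm16, Nalm30, 697, RS4,11 and REH, and T-cell ALL (T-ALL) by 7, namely Jurkat, Molt4, CCRF-CEM, ALL-SIL, TALL-1, P12-ICHIKAWA and HPB-ALL. Serum carries cholesterol and fatty acids, and all lines shared it. Values are log2 of the signal plus 16, so the lowest possible value is 4 and differences between low values are compressed. Since a line was measured once, the spread given is that between lines, and in bulk RNA fewer expressing cells and less RNA per cell cannot be told apart.

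By the mean of each list, defining markers followed the labelled lineages, although VPREB1 and CD2 overlapped between them. For 6 B-cell precursor markers the mean level per line ran from 9.77 to 10.52 in BCP-ALL, with T-ALL lines at 4.37 to 5.43. For 7 T-cell markers it ran from 8.91 to 10.37 in T-ALL, with BCP-ALL lines at 4.83 to 5.28. Myeloid marker levels overlapped for all 6 genes measured. Arrays of P12-ICHIKAWA and TALL-1 stood closest, with a Pearson r of 0.993 over all probe sets, followed by Nalm16 and Nalm30 at 0.959, and the least alike arrays reached 0.770. Array medians ran from 5.05 in Nalm16 to 5.37 in REH. Some results that change when these pairs are averaged or left out are given both ways, but not all.

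Cells make cholesterol from acetyl-CoA through the mevalonate pathway and fatty acids from acetyl-CoA through malonyl-CoA. The transcription factors SREBF1 and SREBF2 drive both pathways. When membrane sterols are low, SCAP escorts these factors out of the endoplasmic reticulum to be cleaved, and INSIG1 and INSIG2 hold SCAP back when sterols are plentiful. HMGCS1, SQLE, IDI1 and INSIG1 are textbook targets of SREBF2, whereas FASN, SCD and ELOVL6 are counted chiefly as targets of SREBF1. The promoters of these genes are known for sterol regulatory elements that lie beside CCAAT boxes, which bind NF-Y, and GC boxes, which bind SP1.

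Promoter windows from RefSeq (GRCh38.p14) were found for 25 of the 28 measured genes, and the 250 bases before each annotated start were searched on both strands. The CCAAT box, spelled CCAAT, stood in at least 1 window of 19 of the 25 genes (76.0%), compared with 37.0% of the 27305 genes searched and 41.5% of the 10187 filtered genes with a window. The GC box, spelled GGGCGG, stood in 24 of 25 (96.0%), compared with 46.2% and 72.2%. Only SREBF2 itself held the letters TCACNCCAC of the sterol regulatory element, 1 of 25 (4.0%), compared with 1.09% of all genes and 1.19% of the filtered genes. These are letter matches and not sites shown to be bound, and genes with several starts had several chances to match.

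Windows of 5 genes are shown, 4 of them enzymes whose levels were read most against each other below, together with SREBF2 with the sterol regulatory element. Capitals mark these motifs or their reverse complements, and each run reads 5′ to 3′ on the gene's strand up to the base before the start. HMGCS1, which condenses acetoacetyl-CoA in the mevalonate pathway, is shown at chr5:43313413-43313662 on the minus strand, MVD, which makes isopentenyl diphosphate, at chr16:88663092-88663341 on the minus strand, and MSMO1, a sterol methyl oxidase, at chr4:165327419-165327668 on the plus strand. SC5D, a sterol desaturase near the end of the pathway, is shown at chr11:121292521-121292770 and SREBF2 at chr22:41832855-41833104, both on the plus strand.
HMGCS1: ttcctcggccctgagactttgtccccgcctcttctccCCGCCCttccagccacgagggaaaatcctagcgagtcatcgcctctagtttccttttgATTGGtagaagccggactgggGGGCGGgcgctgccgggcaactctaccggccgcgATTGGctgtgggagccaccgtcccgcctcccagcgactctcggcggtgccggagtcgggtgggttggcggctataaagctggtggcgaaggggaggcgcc
MVD: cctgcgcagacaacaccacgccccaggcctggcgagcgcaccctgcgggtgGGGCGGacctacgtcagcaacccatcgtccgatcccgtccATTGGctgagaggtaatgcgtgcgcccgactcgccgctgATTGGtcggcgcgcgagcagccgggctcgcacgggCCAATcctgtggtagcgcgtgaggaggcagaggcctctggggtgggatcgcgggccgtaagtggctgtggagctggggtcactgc
MSMO1: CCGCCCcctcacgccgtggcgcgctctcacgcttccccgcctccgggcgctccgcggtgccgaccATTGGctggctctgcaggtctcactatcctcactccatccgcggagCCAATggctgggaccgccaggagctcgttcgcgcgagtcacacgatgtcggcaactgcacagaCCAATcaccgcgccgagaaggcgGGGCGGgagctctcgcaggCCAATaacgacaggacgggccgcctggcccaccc
SC5D: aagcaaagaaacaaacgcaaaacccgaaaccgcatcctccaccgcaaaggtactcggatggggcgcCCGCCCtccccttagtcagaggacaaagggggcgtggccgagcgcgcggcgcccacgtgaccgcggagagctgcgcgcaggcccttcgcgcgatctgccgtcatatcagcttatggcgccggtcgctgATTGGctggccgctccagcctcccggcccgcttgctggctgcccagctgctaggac
SREBF2: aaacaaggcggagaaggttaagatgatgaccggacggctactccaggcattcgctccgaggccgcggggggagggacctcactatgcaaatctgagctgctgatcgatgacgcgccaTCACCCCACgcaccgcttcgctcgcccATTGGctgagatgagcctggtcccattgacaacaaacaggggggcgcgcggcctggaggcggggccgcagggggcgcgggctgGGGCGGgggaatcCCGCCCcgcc

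Inverted CCAAT boxes (ATTGG) stood at -155 and -100 in HMGCS1, at -159 and -120 in MVD and at -185 in MSMO1, counted from the base before the start as -1. HMGCS1 has another annotated start, whose window held no CCAAT box. In SC5D the single CCAAT box began at -56 from the start shown and at -137 from the other annotated start, and in SREBF2 the sterol regulatory element began at -133 and the CCAAT box at -106. The genes without a CCAAT box in these windows were ELOVL6, FADS2, INSIG2, PMVK, SCAP and SREBF1.

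Levels of the 28 genes varied unevenly among the lines. The SD over 13 lines ran from 0.27 for MVK, the mevalonate kinase, to 1.86 for SCD, the stearoyl-CoA desaturase. Among the 16 cholesterol enzymes HMGCS1 varied most, with a lowest level of 7.84 in Nalm30, a median of 9.03 and a highest level of 11.01 in Nalm6. Nalm6 and Jurkat stood out from the other lines. Nalm6 had the highest value for 9 of the 28 genes and was among the highest 2 lines for 18. For Jurkat these numbers were 7 and 16. Of the 16 cholesterol enzymes, 14 had Nalm6 and 10 had Jurkat among their highest 2 lines. The median deviation of the 28 genes from their means was 0.84 in Jurkat and 0.64 in Nalm6, while that of all filtered genes was 0.12 and 0.02.

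The low end was shared by several lines. HPB-ALL had the lowest value for 8 genes, Nalm16 for 7, and Nalm30, CCRF-CEM and TALL-1 for 3 each. Nalm16 and Nalm30 were mixed: for HMGCS1, IDI1, HSD17B7, SC5D, INSIG2, STARD4 and ELOVL6 they were the lowest 2 lines, whereas Nalm30 had the highest value for LSS, EBP, TM7SF2, PMVK and FASN. For LSS, which cyclises squalene epoxide to lanosterol, the level was 10.06 in Nalm30 and 9.79 in Nalm16, against 10.02 in Nalm6 and 9.96 in Jurkat. In all other lines LSS was between 7.91 and 9.17. The plot of centred values shows this split within the BCP-ALL lines. For LSS it rested on the probe set used. Another one, of mean level 6.02, was at 5.66 in Nalm16 and 6.33 in Nalm30, with Nalm6, Jurkat and REH between 7.38 and 7.54.

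**Figure D1:**
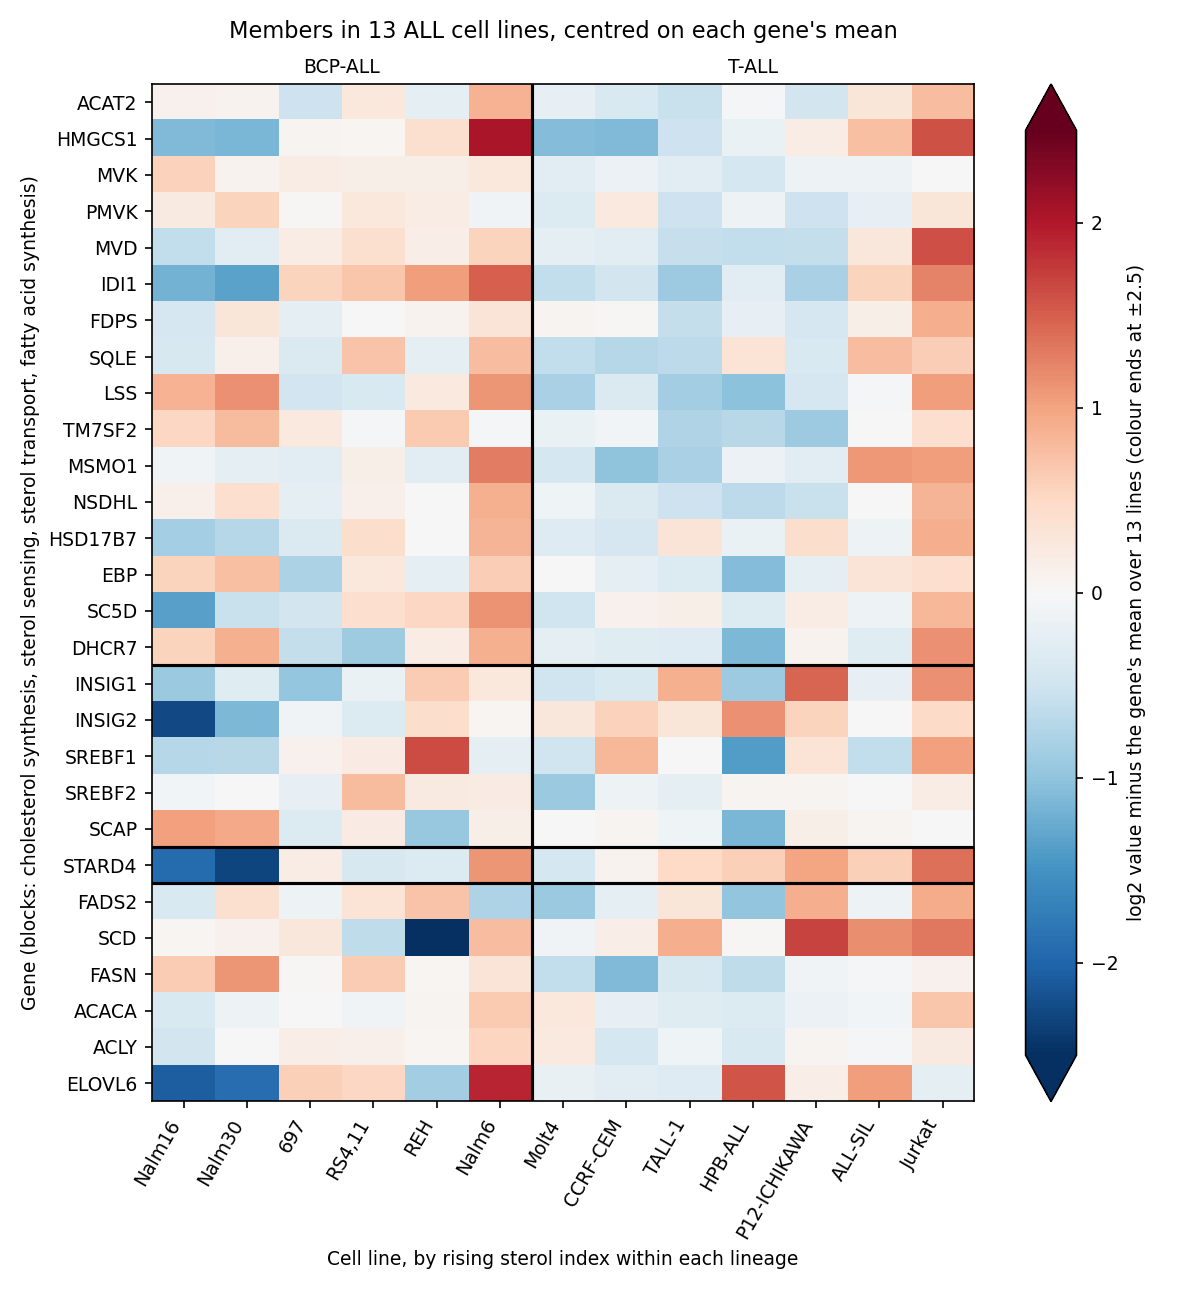
Level of each of the 28 measured genes (rows, in blocks by role) in each cell line (columns, by rising sterol index within lineage), as the log2 value minus the gene's mean over 13 lines. Nalm6 and Jurkat are above the mean for most cholesterol enzymes, Nalm16 and Nalm30 are low for HMGCS1, IDI1, STARD4 and ELOVL6 but high for LSS and EBP, and SCD is lowest in REH.

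The first question was whether SREBP targets moved together across lines. Over the 378 pairs of the 28 genes, the median Pearson r was 0.30 and 80.4% of pairs were positive, while the median over all pairs of filtered genes was 0.02 with 51.4% positive. The cholesterol enzymes had the highest values of the role groups: the median r of their 120 pairs was 0.52 and 94.2% were positive. The 10 pairs of sterol sensors had a median r of 0.11 and the 15 pairs of fatty acid genes 0.10. By Spearman rho the medians were 0.46 for the cholesterol enzymes, 0.22 for the sterol sensors and 0.23 for the fatty acid genes. Pairs share genes and lines, so these values are a description without a p.

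The closest pairs were LSS with DHCR7, the reductase of the last step to cholesterol (r = 0.90), HSD17B7 with SC5D (r = 0.89), ACAT2 with MSMO1 (r = 0.89) and SQLE with MSMO1 (r = 0.87). ACAT2 here is the cytosolic acetyl-CoA acetyltransferase at the head of the pathway, and SQLE is the squalene epoxidase. At the other end, INSIG2 ran against SCAP (r = -0.81), MVK (r = -0.79) and FASN (r = -0.72). By Spearman rho these values were -0.58, -0.70 and -0.76. INSIG2 was lowest in Nalm16, at 4.62 near the lower limit of the scale, and in Nalm30, at 5.75. SCAP was highest in the same lines, at 9.25 and 9.17. The median r values depended on a pair of lines. Without Jurkat and Nalm6, lines chosen for this after their values were seen, the median r fell to 0.13 for all 28 genes and to 0.31 for the cholesterol enzymes. It was 0.65 for the cholesterol enzymes without Nalm16 and Nalm30. Within the 7 T-ALL lines it was 0.68 and every pair of cholesterol enzymes was positive, and within the 6 BCP-ALL lines it was 0.33 with 65.8% positive.

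To place the remaining genes on 1 scale, a sterol index was formed as the mean log2 level of HMGCS1, SQLE, IDI1 and INSIG1, and these 4 genes were left out of the tests on it. The 4 genes agreed unevenly. HMGCS1 had an r of 0.86 with IDI1 and of 0.70 with SQLE, and SQLE had one of 0.63 with IDI1. INSIG1 had an r of 0.47 with HMGCS1, 0.21 with IDI1 and 0.05 with SQLE. The index was 10.73 in Jurkat and 10.72 in Nalm6. ALL-SIL and REH followed at 10.05 and 10.04, and RS4,11 stood at 9.90. The lowest values were 8.92 in CCRF-CEM, 8.91 in Nalm30, 8.87 in Molt4 and 8.67 in Nalm16. The lineages did not separate, with 9.61 ± 0.76 in BCP-ALL (SD, n = 6) and 9.55 ± 0.66 in T-ALL (SD, n = 7).

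No gene of 12556 passed an adjusted p of 0.05 for its slope on the index in limma with Benjamini-Hochberg adjustment (0.0%). At an unadjusted p under 0.05, 1282 genes passed (10.2%), of which 972 had a positive slope (7.74%). Of the 24 remaining genes of the set, 11 passed at that unadjusted level, all with a positive slope. These were ACAT2, MVD, FDPS, MSMO1, NSDHL, HSD17B7, SC5D, STARD4, ACACA, ACLY and ELOVL6, each with an adjusted p of 0.475. The slope was above 0 for 21 of the 24 genes, compared with 58.0% of all genes tested, and its median was 0.35 compared with 0.06 over all genes tested.

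By role, 7 of the 13 tested cholesterol enzymes passed the unadjusted level, with a median slope of 0.40, as did 3 of 6 fatty acid genes, with a median of 0.30, and 0 of 4 sterol sensors, with a median of 0.39. The smallest p among them belonged to SC5D, which had a slope of 0.82 ± 0.16 log2 per unit of the index (SE, unadjusted p = 0.000169 in limma, rank 4 of 12556). Its level was 6.20 in Nalm16, 7.66 at the median and 8.67 in Nalm6. HSD17B7, a sterol ketoreductase, ranked 5, with a slope of 0.70 ± 0.14 and levels from 7.72 in Nalm16 to 9.48 in Jurkat. Its probe set, like that of IDI1, is of the kind that may also match near-identical copies, so both are uncertain. MVD ranked 11 with a slope of 0.74 ± 0.17, and its 7.30 in Jurkat lay above the next value of 6.25 in Nalm6. MSMO1 ranked 12 with a slope of 0.83 ± 0.19, and Nalm6, ALL-SIL and Jurkat lay between 10.47 and 10.72 with all others at or below 9.59.

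STARD4, a carrier of cholesterol between membranes, had the steepest slope of the set, at 1.10 ± 0.33. It ran from 4.88 in Nalm30 and 5.24 in Nalm16, near the lower limit of the scale, to 8.55 in Jurkat. Among fatty acid genes, ACACA, which makes malonyl-CoA, had a slope of 0.37 ± 0.12, ACLY, which supplies cytosolic acetyl-CoA, 0.28 ± 0.12, and the elongase ELOVL6 0.95 ± 0.41. FASN, the fatty acid synthase, had a slope of 0.14 ± 0.25. For SCD the value was -0.05 ± 0.76 over all lines and 0.50 ± 0.26 without REH, the line in which it was near the lower limit of the scale. Both regulators pointed upward without passing the unadjusted level: SREBF2 had a slope of 0.30 ± 0.15 (unadjusted p = 0.0609 in limma) and SREBF1 of 0.49 ± 0.31 (unadjusted p = 0.143 in limma). The slope of PMVK was -0.01 ± 0.15, that of MVK 0.03 ± 0.13 and that of TM7SF2 0.03 ± 0.23. The last 2 changed sign after quantile normalization.

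The count of 11 depended on the lines at the top of the index. Without Jurkat and Nalm6, only HSD17B7 and SC5D of the 24 passed the unadjusted level, with 10.4% of all genes. Without Nalm6 alone 6 passed, with 7.1% of all genes, and without Jurkat alone 7, with 10.1%. With Nalm16 and Nalm30 left out, 13 passed, now including LSS, EBP, DHCR7, SREBF2 and FASN but not STARD4, ACLY or ELOVL6. In that fit 3.85% of all genes passed the unadjusted level. With SQLE alone as the index, 8 of 27 tested genes of the set passed it, HSD17B7 and SC5D not among them. Of all genes 3.04% passed there.

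**Figure D2:**
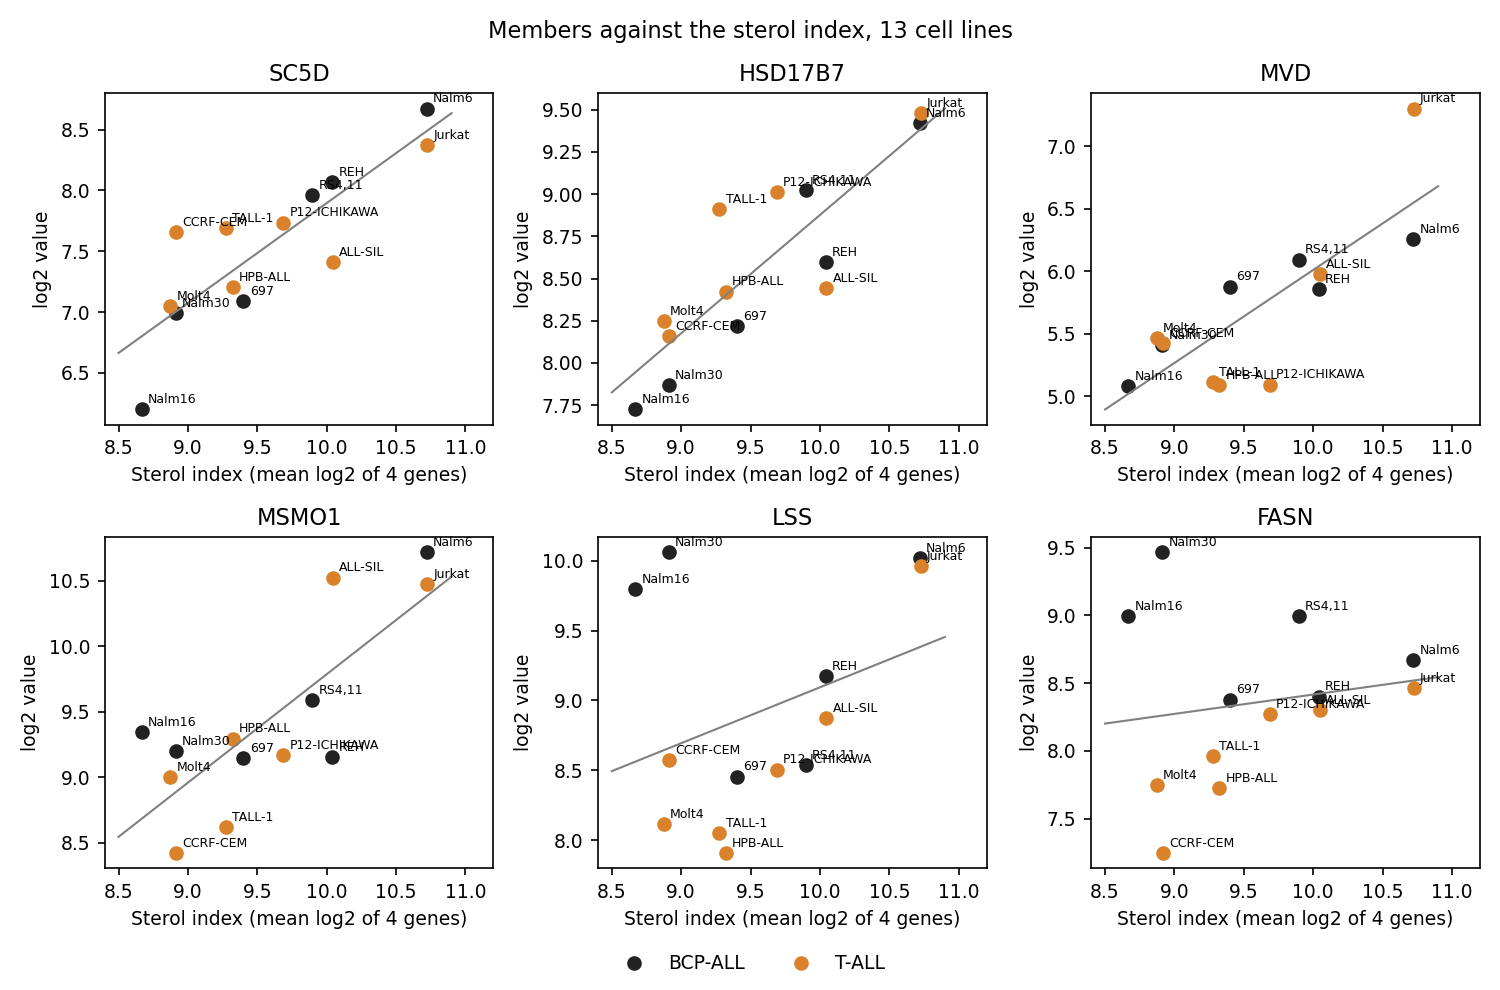
Log2 level of 6 genes against the sterol index in 13 cell lines (black, BCP-ALL, and orange, T-ALL), with the least-squares line over all lines. SC5D and HSD17B7 rise with the index, MVD rests partly on Jurkat at 7.30, and LSS and FASN lie off the line in Nalm16 and Nalm30.

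The genes most like the index outside the set were named by the smallest p in the same fit. LRP8, a receptor of the lipoprotein receptor family, ranked 1 of 12556 with a slope of 0.72 ± 0.10, an adjusted p of 0.074 in limma and an r with the index of 0.95 over 13 lines. It ran from 6.80 in Nalm16 to 8.02 in Jurkat and 8.59 in Nalm6. ELMO3 (r = 0.87) was also highest in Nalm6 and Jurkat, at levels of only 5.78 and 5.65. PRTFDC1 (r = -0.84), LINC00667 (r = -0.84) and LINC00526 (r = -0.80) ran the other way, with their lowest levels, 4.07, 4.12 and 4.03, in Nalm6.

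The members' windows and their relation to the index were set side by side. The 16 genes outside the index whose window held a CCAAT box had a median r with the index of 0.57, ranging from -0.02 to 0.86, and the 6 genes without it had a median of 0.34, ranging from -0.29 to 0.54. The ranges overlapped, and MVK, with 5 CCAAT boxes, had an r of 0.08 by the probe set used. By the other probe sets of MVK, of lower mean level, the r with the index was 0.29 and 0.65, so its low r depended on the probe set.

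The sign of r with the index differed between the 2 lineages for some genes. Of the 24 genes, 13 had an r with the index above 0 in both lineages, 10 had an r below 0 in BCP-ALL and above 0 in T-ALL, and INSIG2 had the opposite pair of signs. SCD was among the 10 through REH, since its r in BCP-ALL was -0.22 with that line and 0.33 over the other 5. LSS had an r of 0.85 in T-ALL and -0.11 in BCP-ALL, and FASN of 0.86 and -0.51. DHCR7 had an r of 0.71 in T-ALL and -0.07 in BCP-ALL. For INSIG2 the r was -0.19 in T-ALL and 0.82 in BCP-ALL. These r rest on 7 and 6 lines, and Nalm16 and Nalm30 are the lowest of the BCP-ALL index. In Nalm16 and Nalm30, LSS stood at 9.79 and 10.06, DHCR7 at 8.47 and 8.80 and FASN at 8.99 and 9.47. The BCP-ALL medians were 9.48, 8.28 and 8.83. With both left out, the slopes of LSS, DHCR7 and FASN over the remaining lines of both lineages were positive past the unadjusted level. The r over the other BCP-ALL lines alone was not calculated. Another probe set of LSS had an r with the index of 0.64 over 13 lines, against 0.34 for the one used.

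**Figure D3:**
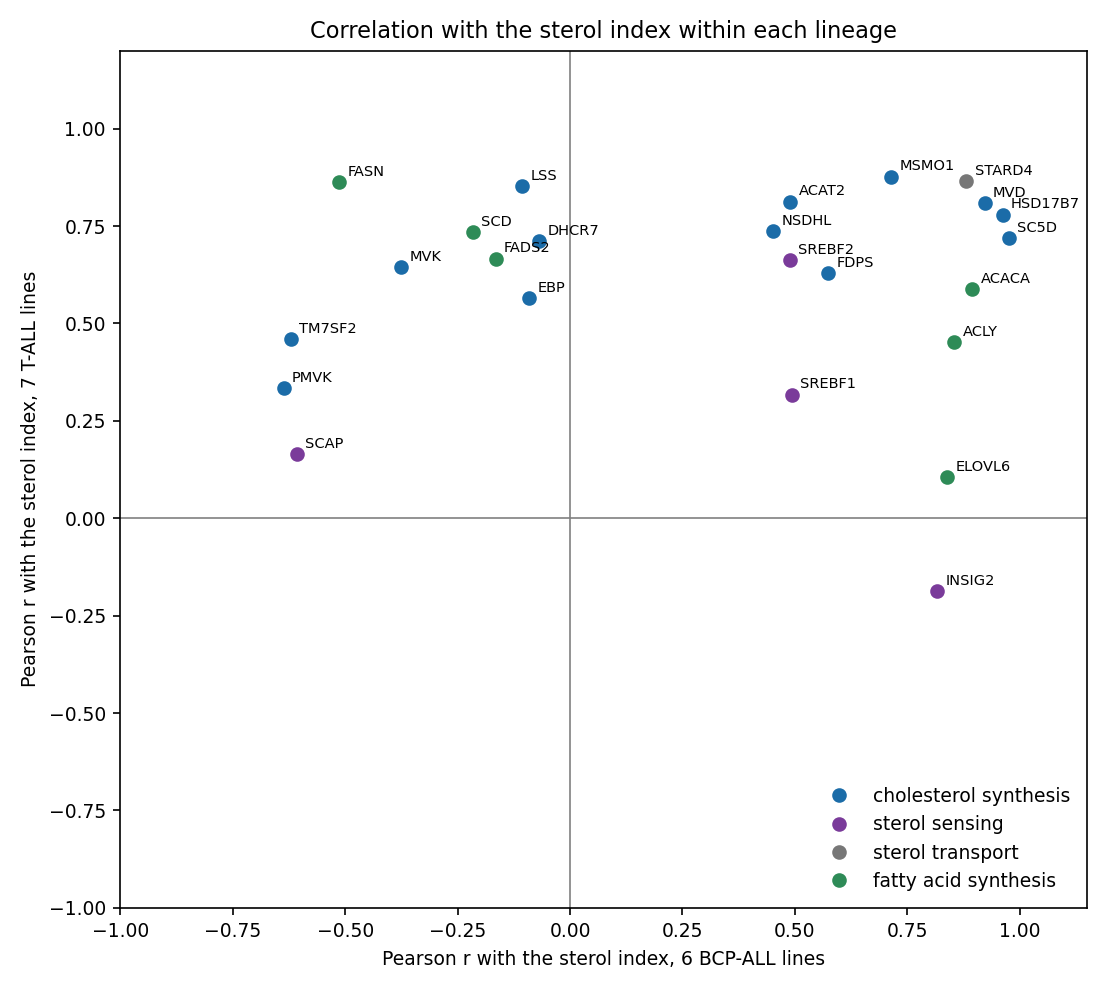
Pearson r of each of 24 genes with the sterol index within the 6 BCP-ALL lines (horizontal) and within the 7 T-ALL lines (vertical), coloured by role. In the upper right quadrant lie 13 genes and in the upper left 10, among them FASN and LSS, and INSIG2 lies alone in the lower right.

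The difference between the lineages was tested as an interaction. No gene passed an adjusted p of 0.05 in limma (0.0% of 12556), and 2451 genes (19.5%) passed at an unadjusted p under 0.05. Of the 24 genes 4 passed at that level, a share of the same order. The slope of FASN was 0.55 in T-ALL and -0.28 in BCP-ALL, a difference of 0.83 ± 0.28 (SE, adjusted p = 0.154 in limma). The slope of INSIG2 was -0.10 in T-ALL and 1.05 in BCP-ALL, a difference of -1.15 ± 0.41 (adjusted p = 0.168 in limma). For SC5D the difference was -0.68 ± 0.26 and for ELOVL6 -1.61 ± 0.68. The difference for ELOVL6 was -0.78 ± 0.88 without Jurkat, and that for INSIG2 was -0.72 ± 0.39 without Nalm16. For FASN it was 0.67 without Nalm30. Without Nalm6 990 genes passed the adjusted level, INSIG2 among them, and without 697 it was 781, none of the 24.

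The lineages themselves were then compared. In T-ALL against BCP-ALL, 958 of 12560 genes passed an adjusted p of 0.05 in limma (7.63%), and of the 28 genes only FASN did, being lower in T-ALL. At an unadjusted p under 0.05 there were 5 of 28, compared with 25.3% of all genes. The mean was lower in T-ALL for 21 of the 28 genes and for 14 of the 16 cholesterol enzymes, and quantile normalization turned the sign of SC5D alone. Over all genes tested 47.0% were lower in T-ALL. The median difference was -0.15 for the 28 genes and -0.26 for the cholesterol enzymes, compared with 0.03 for all genes tested.

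FASN had a lowest level of 8.38, a median of 8.83 and a highest of 9.47 in BCP-ALL, and 7.25, 7.96 and 8.47 in T-ALL. The ranges overlapped narrowly, with Jurkat above 697 and REH. The means were 8.82 ± 0.42 (SD, n = 6) and 7.96 ± 0.42 (SD, n = 7), a difference of -0.86 ± 0.23 (SE, adjusted p = 0.0411 in limma). The call was lost with P12-ICHIKAWA and TALL-1 averaged, where the difference was -0.88 ± 0.25 (adjusted p = 0.0644 in limma), and without Nalm16 and Nalm30, where the difference was -0.65 ± 0.24 (adjusted p = 0.154 in limma). It was also lost when any of 9 single lines was left out, with differences between -0.94 and -0.73 over all 13 such fits. The other FASN probe set averaged 4.73.

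MVK was the only one of the 28 genes whose ranges did not overlap, as for 3.69% of all filtered genes. It was lowest at 8.0 in BCP-ALL and highest at 7.90 in T-ALL, and the difference of -0.43 ± 0.13 had an adjusted p of 0.0566 in limma. The other 2 probe sets of MVK, with mean levels of 6.10 and 5.54, overlapped between the lineages, with differences of -0.54 and -0.41. TM7SF2, a sterol reductase, differed by -0.66 ± 0.24 (adjusted p = 0.107 in limma), with its lowest levels, 5.86 and 6.01, in P12-ICHIKAWA and TALL-1. LSS differed by -0.77 ± 0.37 (adjusted p = 0.212 in limma). Its 3 probe sets did not behave alike: one of them averaged 6.02, with an r of 0.73 to the one used, and the remaining one averaged 4.73.

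On the other side, INSIG2 and STARD4 had higher means in T-ALL. INSIG2 was 4.62 at its lowest, 6.66 at the median and 7.32 at its highest in BCP-ALL, and 6.86, 7.35 and 8.01 in T-ALL, a difference of 1.03 ± 0.37 (adjusted p = 0.11 in limma). STARD4 was 4.88, 6.80 and 8.27 in BCP-ALL and 6.73, 7.77 and 8.55 in T-ALL, a difference of 1.14 ± 0.50 (adjusted p = 0.172 in limma). For both genes the lowest 2 lines were Nalm16 and Nalm30. Without them the differences were 0.46 ± 0.22 and 0.39 ± 0.36.

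SCD, which places the double bond in saturated fatty acids, had the widest range of the set. It was 4.13 in REH, next to the lower limit of the scale, and between 9.28 and 11.62 in the other 12 lines. All 4 probe sets of SCD had their lowest level in REH, between 4.0 and 4.26. The means were 9.06 ± 2.46 in BCP-ALL (SD, n = 6) and 10.67 ± 0.70 in T-ALL (SD, n = 7), and the difference of 1.61 ± 0.88 had an adjusted p of 0.264 in limma. Without REH the difference was 0.62 ± 0.35 (adjusted p = 0.251 in limma), with a BCP-ALL mean of 10.04 ± 0.51 (SD, n = 5). In the same line SREBF1 had its highest level of all lines, 9.24, and FADS2, a desaturase of polyunsaturated fatty acids, stood at 9.74. By the other SREBF1 probe set REH stood at 6.57 and Jurkat was highest, at 7.74.

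**Figure D4:**
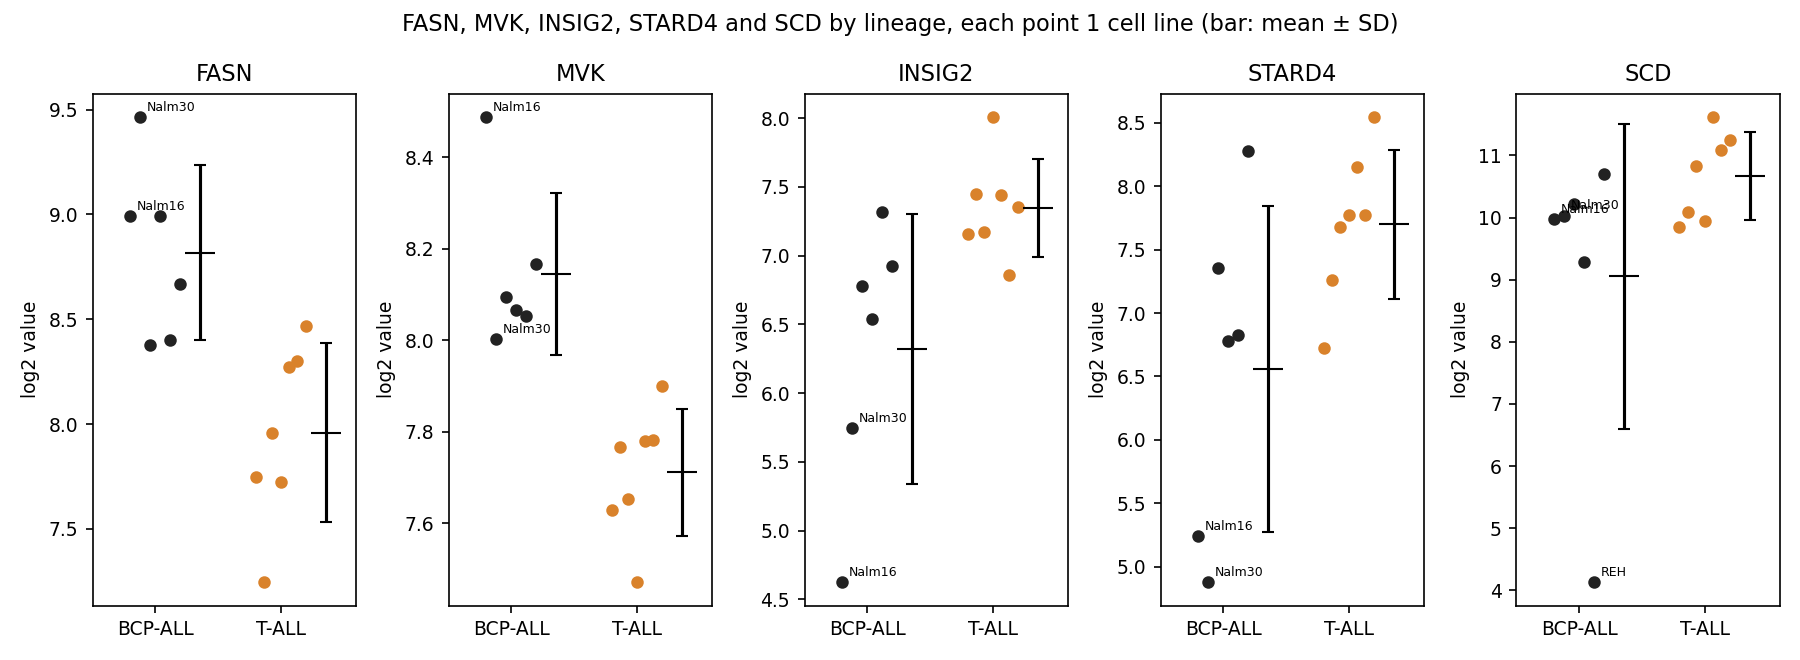
Log2 level of FASN, MVK, INSIG2, STARD4 and SCD in each BCP-ALL (black) and T-ALL (orange) line, with the mean ± SD of each group beside the points. MVK ranges do not overlap, FASN ranges overlap narrowly, Nalm16 and Nalm30 are the lowest lines for INSIG2 and STARD4, and REH lies at 4.13 for SCD.

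**Figure D5:**
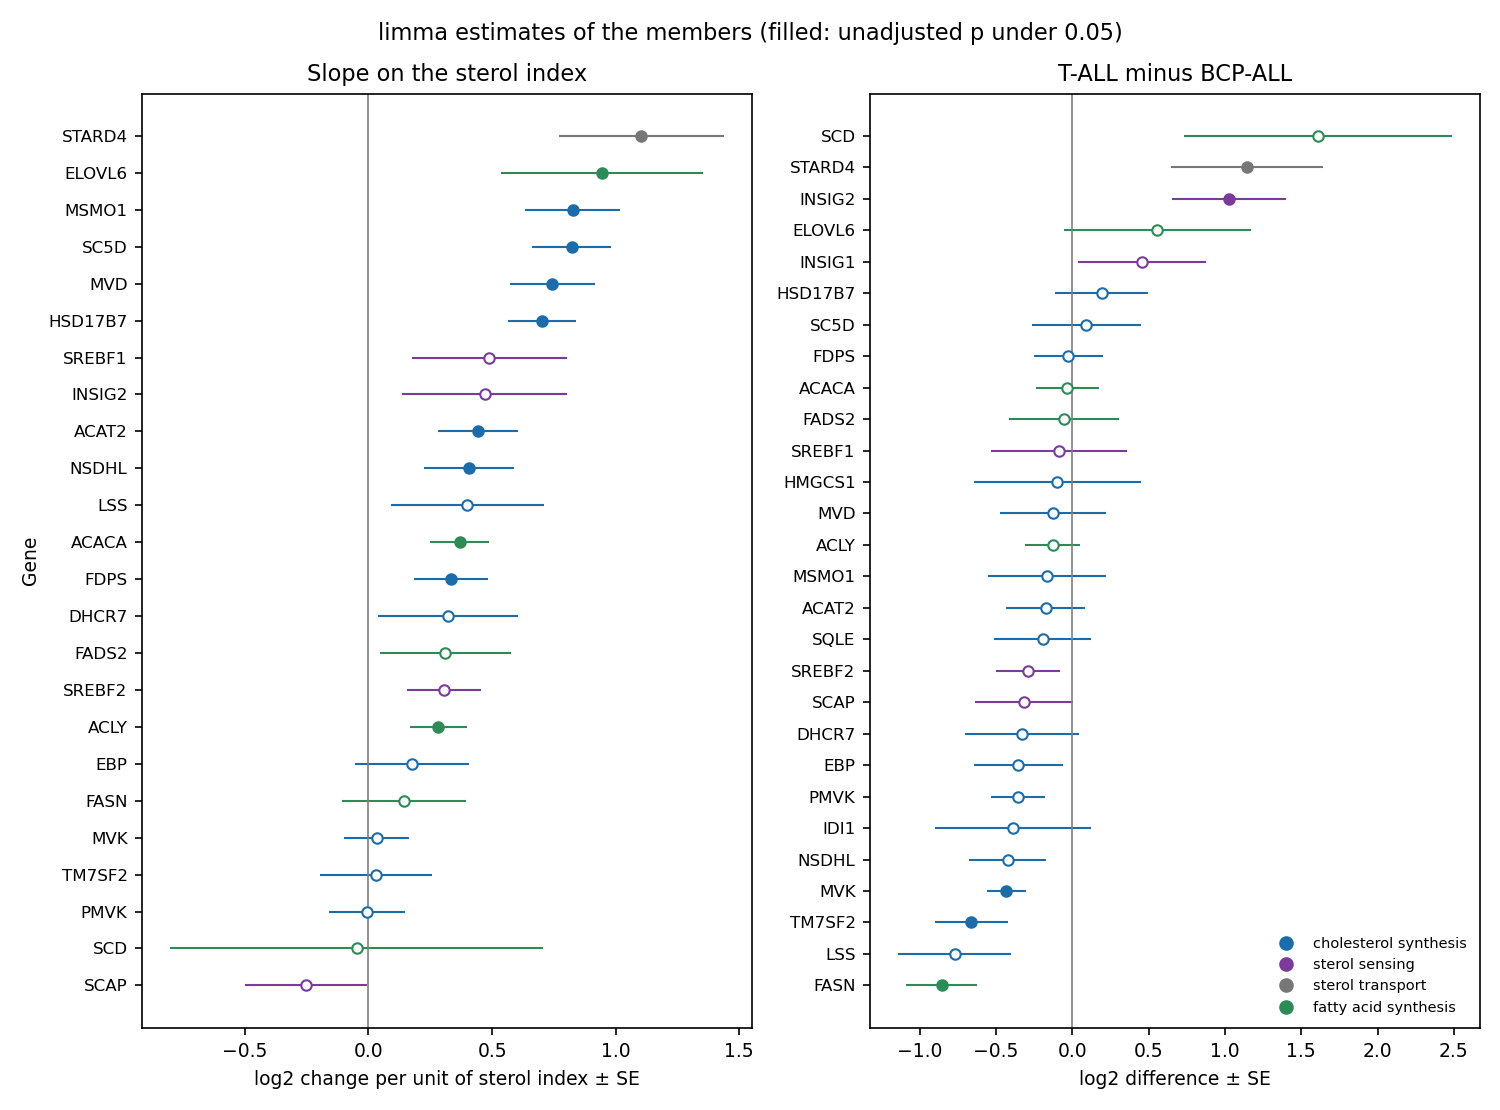
limma estimates with SE bars for the slope on the sterol index (left, 24 genes) and for T-ALL minus BCP-ALL (right, 28 genes), coloured by role and filled where the unadjusted p is under 0.05. Filled points on the left all lie above 0, and of those on the right only FASN, at -0.86, passed the adjusted p of 0.05.

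Genes of neighbouring pathways were read in the same fits. For the lineage comparison, SCARB1, a lipoprotein receptor, was lower in T-ALL, with a log2 difference of -1.29 ± 0.25 (SE, adjusted p = 0.00622 in limma), 1 of 14 genes of sterol uptake, storage and release. In that list SCARB1 was at 8.30 or above in BCP-ALL and at 8.10 or below in T-ALL. Among 20 other fatty acid and lipid genes 2 passed: ACSS2, which makes acetyl-CoA from acetate, with a difference of -1.74 ± 0.37, and the citrate carrier SLC25A1, with -0.87 ± 0.23. Of 14 isoprenoid genes COQ2 was lower in T-ALL, at -1.19 ± 0.31, and GGPS1, which makes geranylgeranyl diphosphate, was higher, at 0.77 ± 0.22. COQ2 was lowest in TALL-1 and P12-ICHIKAWA, at 5.68 and 5.80, and GGPS1 in Nalm16, at 6.72. None of 6 LXR and efflux genes or of 10 genes of SREBP cleavage and degradation passed the adjusted level. At an unadjusted p under 0.05 they numbered 2 each. Over all genes tested 7.63% passed the adjusted level and 25.3% the unadjusted one.

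For the slope on the sterol index no gene of these lists passed the adjusted level. At an unadjusted p under 0.05 there were 2 of 14 uptake and storage genes (LRP8 and NCEH1, which hydrolyses cholesteryl esters), 1 of 10 cleavage and degradation genes (SPRING1), 3 of 14 isoprenoid genes, 3 of 20 other lipid genes and 0 of 6 LXR genes. Over all genes tested 10.2% passed that level. Of the 3 other lipid genes, THRSP and SCD5 had negative slopes, -0.38 and -0.48, and GPAM a positive one, 0.67. The median slope was 0.04 for the uptake list and 0.14 for the LXR list, beside 0.06 for all genes and 0.35 for the 24 genes of the set.

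Doubling times were not used here. As another measure of proliferation, a division index was formed as the mean log2 level of 12 genes of dividing cells, such as MKI67 and TOP2A, which is not the doubling time. It ran from 8.95 in Nalm16 to 9.99 in HPB-ALL and correlated weakly with the sterol index (r = 0.18 over 13 lines and -0.24 without Nalm16). Of 12548 genes 2987 passed an adjusted p of 0.05 for their slope on it in limma (23.8%), and of the 28 genes 4 did. INSIG2 had a slope of 2.88 ± 0.32 (adjusted p = 0.00108 in limma). Negative slopes were found for SCAP, at -1.62 ± 0.41, FASN, at -1.54 ± 0.43, and MVK, at -0.78 ± 0.22. The division index itself was 9.53 ± 0.33 in BCP-ALL (SD, n = 6) and 9.85 ± 0.12 in T-ALL (SD, n = 7). With lineage as a covariate INSIG2 and SCAP were still called, with 6.84% of all genes, and FASN and MVK were not. No cholesterol enzyme had a positive slope past this level.

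None of these calls remained without Nalm16, the line with the lowest division index. Without it 0 of 12548 genes passed the adjusted level, although the slopes did not vanish. INSIG2 then had a slope of 2.70 ± 0.54 (adjusted p = 0.155 in limma), FASN of -2.76 ± 0.59 (adjusted p = 0.155 in limma), SCAP of -2.05 ± 0.69 and MVK of -0.80 ± 0.38. The estimates of FASN and SCAP were thus larger without that line, with wider errors. The array of Nalm16 also had the lowest median, and with quantile normalization the median slope of all genes moved from 0.14 to -0.26 and 8 of the 28 genes changed sign, none of them among the 4 called. The part of array level in these slopes was not tested. Other lipid genes called in this fit, PAQR3 at 3.83 ± 0.72, GGPS1 at 1.66 ± 0.30, ACSL4 at 2.12 ± 0.42 and NPC2 at -2.32 ± 0.61 among them, were also lost without Nalm16.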

How the data were processed

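The authors extracted total RNA, hybridised 1 HG-U133 Plus 2.0 array per line and summarised probe sets with iterPLIER+16 in Affymetrix Expression Console, per the labels and the study's methods, and the deposited values are log2 of the signal plus 16. No source used here gives the scaling between arrays, and no further normalization was applied. Of 42450 probe sets, 38125 were annotated to 1 symbol, 1742 to several, and the rest to none, from the platform annotation. Each gene was read from its probe set of highest mean and was kept when above the array median in at least 3 lines. Lineage, both indices and the interaction were fitted over all kept genes with lmFit and eBayes of limma 3.58.1 in R 4.3.3, two-sided, with Benjamini-Hochberg adjustment at 0.05. Correlations and figures used Python 3.11.15. The fits were tested on simulated data.

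Members and lists were chosen with earlier results of these data known. All 31 genes were to be named, with the 5 others of smallest p on the sterol index and up to 4 called genes per list. The number of arrays limits precision: each line has 1 array, and p-values rest on the spread between lines. The main fits treated all lines as independent, also the closely alike P12-ICHIKAWA and TALL-1, and Nalm16 and Nalm30. The alternatives were quantile normalization, no filter or a stricter one (7 lines), the probe set of largest SD, a variance trend, averaging or leaving out related lines, leaving out each line, lineage as a covariate and single-gene indices. Promoter sequences came from RefSeq tables (GRCh38.p14), of which only bases before the start were used.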

Additional observations from a re-analysis of the deposited data

Results flagged for a closer look

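Within a lineage, 7 values lay further from their nearest neighbour than Dixon's ratio allows at the 95% level, out of 56 sets of values tested (28 genes in 2 lineages). Chance marks about 1 in 20 such sets. In BCP-ALL, SCD was 4.13 in REH, below a next value of 9.28. MSMO1 in Nalm6 stood at 10.72 above 9.59, and MVK in Nalm16 at 8.49 above 8.17. In T-ALL, Jurkat was highest for MVD, at 7.30 above 5.97, and for NSDHL, a sterol dehydrogenase, at 7.78 above 6.92. SCAP in HPB-ALL, at 7.08, lay below 8.10 in the next line, and SREBF2 in Molt4, at 7.36, below 8.06.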

How the results depend on the processing

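No paired analysis was possible because replicate numbers only name lines in order of accession. Without Jurkat and Nalm6, within lineages, quantile normalization of the pair correlations and leaving out the 2 lines farthest from an index were settings chosen after seeing the data. FASN, the 1 gene of the set called by lineage, dropped to 0 called with P12-ICHIKAWA and TALL-1 averaged (610 genes called of all, against 958), with both related pairs averaged (472) and without Nalm16 and Nalm30. With no filter MVK was called in place of FASN. Leaving out single lines gave 0 to 1 genes of the set and 609 to 1223 of all genes.

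For the sterol index, the 11 genes at an unadjusted p under 0.05 became 6 with quantile normalization, 4 of then 27 tested with INSIG1 alone as the index (only HSD17B7 and SC5D shared with the 11) and 2 without the 2 lines farthest from its median, and 6 to 11 without single lines. The 1282 of all genes became 492 with quantile normalization, 2434 with the probe set of largest SD, 474 with both pairs averaged, 483 without Nalm16 and Nalm30, 2170 with lineage as a covariate, 382 with SQLE alone, 2065 with IDI1 alone, and 413 to 2037 without single lines. Adjusted calls were 0 except 1 gene with no filter and 2 with IDI1 alone. NSDHL reversed to -0.0415 without the 2 farthest lines.

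For the division index, the 4 genes of the set became 2 with the probe set of largest SD, with both pairs averaged and with lineage as a covariate, 0 without Nalm16 and Nalm30 and without the 2 farthest lines, 6 with quantile normalization, and 0 to 5 without single lines. The 2987 of all genes became 865 with quantile normalization, 602 with both pairs averaged, 858 with lineage as a covariate, 0 without Nalm16 and Nalm30 or the 2 farthest lines, and 0 to 3201 without single lines. Of the genes called, 76.3% had a positive slope, and 62.4% after quantile normalization. STARD4 reversed to -0.0576 without Nalm16 and Nalm30. Interaction calls over all genes were 1 with quantile normalization and 2 without Nalm16 and Nalm30, and 0 to 990 without single lines, with 0 to 1 in the set.

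The median pair r of 0.30 over all members was 0.13 without Jurkat and Nalm6 and 0.49 within T-ALL. That of the cholesterol enzymes, 0.52, was 0.65 without Nalm16 and Nalm30, 0.31 without Jurkat and Nalm6, 0.33 within BCP-ALL and 0.68 within T-ALL. The causes were not tested. Quantile normalization moved the median slope of all genes by -0.10 on the sterol index, -0.40 on the division index and 0.19 in the interaction.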
